A study of Homo sapiens with 6 samples.

Results

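The alpha- and beta-tubulin genes of the 22RV1 transcriptome were examined, as the rows carrying the symbols TUBA1A, TUBA1B, TUBA1C, TUBA4A, TUBB, TUBB2A, TUBB2B, TUBB3, TUBB4B and TUBB6. These 10 genes, of 26255 in each expression table, were picked by gene symbol. The cells were 22RV1, a human line of castration-resistant prostate cancer grown in serum-containing medium. Of the 6 samples, 3 received the solvent DMSO and 3 received 10 nM bruceantin (BCT), a plant quassinoid, each for 24 h. Messenger RNA was read by sequencing, and each gene's level was given as FPKM, a read density scaled to transcript length and to the size of the library. Every sample came from the same cell line, and nothing in the sample labels says whether replicates were separate cultures, so p-values measure only the spread between these samples.

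Microtubules are polymers of heterodimers made of an alpha- and a beta-tubulin, and human cells carry several genes, called isotypes, for each. Cells adjust tubulin synthesis to the pool of free dimers. When free tubulin is in excess, the ribosome-associated factor TTC5 recognises the first residues of a tubulin chain as it leaves the ribosome, and SCAPER then brings in the CCR4-NOT deadenylase through CNOT11, so that the mRNA under translation is degraded. The comparison asked how far the isotypes moved together or apart when cells were exposed to BCT.

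The stretch of each mRNA that encodes the chain read by this mechanism is shown first, since it sets the members apart by class. Each sequence is the first 30 coding bases of the gene's representative transcript in the GRCh37 annotation, 5′ to 3′ on the coding strand, with the first 4 codons in capitals.
TUBA1A: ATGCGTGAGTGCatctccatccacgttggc
TUBA1B: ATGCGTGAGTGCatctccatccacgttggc
TUBA1C: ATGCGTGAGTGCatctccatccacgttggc
TUBA4A: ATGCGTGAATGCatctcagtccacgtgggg
TUBB: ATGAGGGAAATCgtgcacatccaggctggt
TUBB2A: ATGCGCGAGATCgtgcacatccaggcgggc
TUBB2B: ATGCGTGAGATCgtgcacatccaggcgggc
TUBB3: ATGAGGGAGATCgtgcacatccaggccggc
TUBB4B: ATGAGGGAAATCgtgcacttgcaggccggg
TUBB6: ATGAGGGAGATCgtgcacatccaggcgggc
TUBA1A, TUBA1B and TUBA1C were identical over these bases. The fourth codon was TGC in all 4 alpha-tubulins and ATC in all 6 beta-tubulins. Every one of these transcripts had 4 exons. The first coding exon held 3 coding bases, the start codon alone, in the alpha-tubulins and 57 coding bases in the beta-tubulins. TUBA1A, TUBA1B and TUBA1C lay on chromosome 12 at chr12:49578578-49582863 (minus strand), chr12:49521565-49525178 (minus) and chr12:49658865-49668383 (plus). TUBA4A lay at chr2:220114432-220118640 (minus). Among the beta-tubulins, TUBB2A at chr6:3153900-3157778 (minus), TUBB2B at chr6:3224511-3227887 (minus) and TUBB at chr6:30688129-30693199 (plus) shared chromosome 6. TUBB3 lay at chr16:89989750-90002505 (plus), TUBB4B at chr9:140135739-140138159 (plus) and TUBB6 at chr18:12308240-12326615 (plus). All coordinates are those of GRCh37, the assembly also called hg19, on which the reads were aligned.

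The isotypes resemble each other closely, which bears on how well reads can be assigned to them. Over the coding sequence TUBA1A and TUBA1B were 97.2% identical, TUBA1B and TUBA1C 96.8%, and TUBB2A and TUBB2B 98.1%. The other beta-tubulin pairs were 80.9% to 87.7% identical. As a rough measure of reads that cannot be told apart, the share of all 100-base stretches of a transcript that also occurred in another of the 10 genes was counted. The study read both ends of each fragment. A fragment is ambiguous only where both of its reads are, so this share can overstate the ambiguity. This share was 53.7% for TUBB2A, 44.7% for TUBB2B, 32.1% for TUBA1B, 21.5% for TUBA1A and 12.3% for TUBA1C. It was at most 5.4% for TUBB3 and TUBB4B, and no stretch of TUBA4A, TUBB or TUBB6 was shared with another member. The split between TUBB2A and TUBB2B, and to a lesser degree that among the TUBA1 genes, is therefore uncertain. Nearly all of TUBB3 (92.5% of stretches) was also held by an annotated gene that overlaps it, and TUBA4A overlaps STK16, a kinase gene whose row averaged 14.2 FPKM with DMSO and 23.8 FPKM with BCT. When all other annotated genes were counted, the shared part rose to 71.1% for TUBA1B, 31.6% for TUBA1C and 21.7% for TUBB, with 999 of the 1528 stretches of TUBA1B held by TUBA1B-AS1, its antisense neighbour. The annotation used for these shares need not be the one behind the expression rows. Among those rows, none overlapped TUBA1B or TUBB3 by position, while AFG3L2 (50.5 FPKM with DMSO, 43.4 with BCT) overlapped TUBB6 and FAM166A (1.52 and 0.97 FPKM) overlapped TUBB4B. The library kit does not mark strand, so overlapping genes could not be separated by it.

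The libraries set some limits on scale. FPKM summed to between 1169650 and 1572320 in the DMSO samples and to between 757534 and 799838 in the BCT samples, and a single row, MIR6087, held 43.5% to 55.3% of the sum with DMSO and 31.7% to 32.5% with BCT. FPKM do not give the number of reads. The study's methods state only an average number of reads per sample, so the depth of each sample is unknown here. Prostate epithelial markers were present, with KRT18 at 337 ± 3.98 FPKM with DMSO (SD, n = 3), and KLK2, KLK3 and TMPRSS2 fell with BCT while KRT8 and KRT18 rose. Of 4 fibroblast markers 2 stayed under 1 FPKM in every sample, as did 2 of 3 leukocyte markers and all 3 endothelial markers. CD3E and CDH5 were at 0 in all DMSO samples. The summed level of the fibroblast markers ran from 2.52 to 2.66 FPKM with DMSO and from 5.83 to 6.97 FPKM with BCT, that of the leukocyte markers from 2.08 to 3.16 and from 4.99 to 8.27 FPKM, and that of the endothelial markers reached at most 0.051 FPKM. COL1A1 (mean 1.43 and 5.83 FPKM) and CD68 (2.50 and 6.39 FPKM) were called higher. Their part in the tubulin results was not tested.

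The 3 most abundant tubulin mRNAs fell with BCT, and none of the 4 scarcest did. On the deposited scale TUBA1B and TUBB fell more than 4-fold. TUBB3 and TUBB4B, the latter the most abundant beta isotype with DMSO, fell less, and TUBB2A rose. A gene was called when its log2 fold change on log2(FPKM + 0.1) was beyond 0.85 in either direction and its adjusted p was under 0.05, in limma fitted over the 12729 genes that averaged 1 FPKM or more. By this rule 4 of the 10 tubulins were called lower, beside 17.8% of all tested genes, and 1 was called higher, beside 13.9%. All 10 passed the filter on low values and 9 were over 10 FPKM in every sample. All 10 also had an adjusted p under 0.05 (limma, Benjamini-Hochberg), as did 82.1% of all tested genes. In all 10 the DMSO and BCT values did not overlap, which held for 85.3% of all tested genes. The median log2 fold change of the 10 tubulins was -0.58, against -0.04 for all tested genes. In bulk RNA, a lower level per cell and fewer cells that carry the mRNA cannot be told apart.

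**Figure D1:**
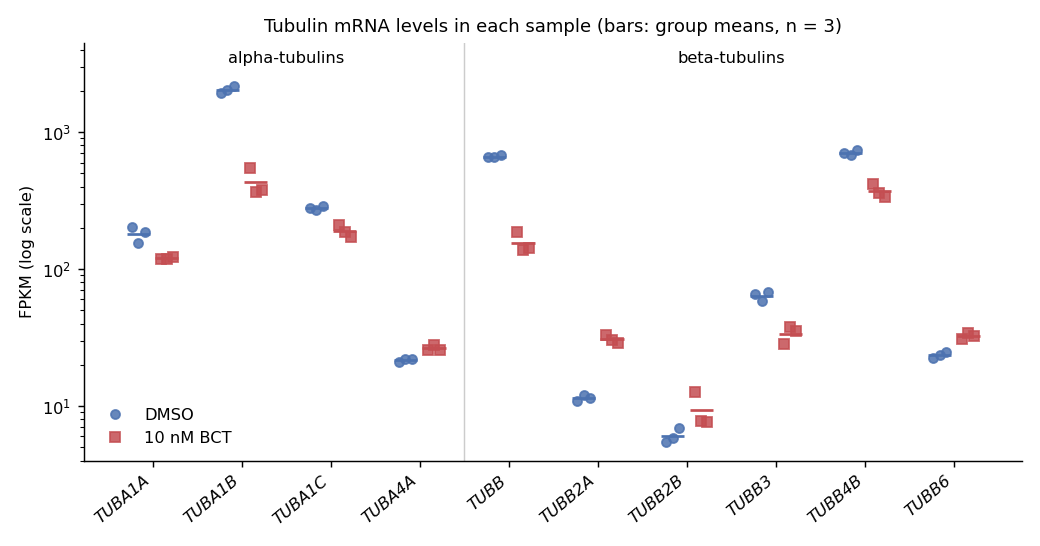
FPKM of each tubulin gene on a log axis, with circles for the 3 DMSO samples, squares for the 3 BCT samples and short bars for group means. TUBA1B and TUBB show the widest gaps downwards (means 2047 to 431 FPKM and 663 to 156 FPKM), and TUBB2A the widest upwards (11.5 to 30.7 FPKM).

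TUBA1B, an alpha-tubulin made in most cell types, was the most abundant tubulin mRNA. It stood at 1938, 2026 and 2175 FPKM in the DMSO samples and at 550, 367 and 376 FPKM in the BCT samples. The DMSO level was thus at the 99.6 percentile of tested genes, and all BCT samples lay far under all DMSO samples, with BCT replicate 1 the highest of its group. The means were 2047 ± 120 and 431 ± 103 FPKM (SD, n = 3 each), a 4.75-fold lower level with BCT. The log2 fold change was -2.27 ± 0.14 (SE), with an adjusted p of 2.27e-06 (limma, Benjamini-Hochberg). This fall was deeper than that of all but 1.6% of tested genes.

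TUBA1C, another broadly expressed alpha-tubulin, moved much less. It measured 281, 270 and 291 FPKM with DMSO and 210, 188 and 173 FPKM with BCT, so the groups were apart but close. Its log2 fold change of -0.57 ± 0.07 (SE) had an adjusted p of 0.000119 (limma, Benjamini-Hochberg) and stayed inside the fold threshold. TUBA1A, the alpha-tubulin best known from developing neurons, was similar at 203, 155 and 187 FPKM with DMSO and 118, 118 and 122 FPKM with BCT. Its log2 fold change was -0.60 ± 0.09 (SE), with an adjusted p of 0.000311 (limma, Benjamini-Hochberg). The signs of TUBA1A and TUBA1C held under 18 of the 19 other settings tried and turned when all samples were rescaled to equal FPKM sums, to 0.17 and 0.20, where the median of all tested genes moved to 0.72.

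TUBA4A, an alpha-tubulin prominent in platelets and brain, was the only alpha member higher with BCT. It gave 21.1, 22.1 and 22.0 FPKM under DMSO, against 25.5, 28.0 and 25.5 FPKM under BCT, a small upward shift without overlap. Its log2 fold change was 0.28 ± 0.06 (SE), with an adjusted p of 0.00177 (limma, Benjamini-Hochberg), which was not called. The row it shares sequence with, STK16, was higher with BCT as well, and its part in the TUBA4A value was not tested.

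TUBB, a beta-tubulin found in most proliferating cells, fell nearly as far as TUBA1B. It was 657, 657 and 676 FPKM in the DMSO samples and 186, 139 and 142 FPKM in the BCT samples. The DMSO samples were within a few percent of each other, and BCT replicate 1 was again the highest of its group. From 663 ± 11.2 to 156 ± 26.2 FPKM (SD, n = 3 each), the level was 4.26-fold lower, with a log2 fold change of -2.10 ± 0.10 (SE) and an adjusted p of 9.52e-07 (limma, Benjamini-Hochberg). The TUBB row is placed on an alternate haplotype of chromosome 6 in the deposited tables, and how reads from the primary chromosome 6 copy were handled is not given in the sources used here.

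TUBB4B, the other abundant beta-tubulin, which also serves in cilia, fell by a smaller factor. It measured 706, 678 and 739 FPKM with DMSO and 421, 362 and 335 FPKM with BCT. Starting from about the level of TUBB, it ended well above it. The level was 1.90-fold lower, and the log2 fold change of -0.93 ± 0.08 (SE) had an adjusted p of 1.32e-05 (limma, Benjamini-Hochberg). TUBB3, the beta-tubulin used as a neuronal marker and also found in tumours, gave 66.0, 58.0 and 68.3 FPKM under DMSO, against 28.3, 38.0 and 35.1 FPKM under BCT. Here BCT replicate 1 was the lowest of its group, the reverse of its place for TUBA1B and TUBB. The log2 fold change of TUBB3 was -0.93 ± 0.11 (SE), with an adjusted p of 7.21e-05 (limma, Benjamini-Hochberg). Both calls depended on the scaling: at equal FPKM sums both genes stood at -0.16, and at -0.54 with MIR6087 left out of the sums, and neither was called. TUBB3 moved to -0.81 without BCT replicate 1 and was then not called, and under quantile normalization TUBB3 stood at -0.83 and TUBB4B at -0.46, neither of them called.

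The rise was led by TUBB2A, a class II beta-tubulin rich in neurons. It gave 10.91, 11.95 and 11.53 FPKM under DMSO, against 33.1, 30.3 and 28.7 FPKM under BCT. Every BCT sample was above every DMSO sample by more than the whole spread of either group. The means of 11.5 ± 0.52 and 30.7 ± 2.21 FPKM (SD, n = 3 each) made a 2.68-fold higher level, with a log2 fold change of 1.41 ± 0.07 (SE) and an adjusted p of 8.5e-07 (limma, Benjamini-Hochberg). TUBB2B, the second class II gene, was low at 5.45, 5.87 and 6.96 FPKM under DMSO and 12.8, 7.78 and 7.70 FPKM under BCT. Its highest value, in BCT replicate 1, stood apart from the other two. The log2 fold change of 0.59 ± 0.19 (SE) had an adjusted p of 0.0192 (limma, Benjamini-Hochberg), was not called, and was 0.35 without that sample. TUBB6, a class V beta-tubulin, gave 22.4, 23.7 and 24.9 FPKM under DMSO, against 30.7, 34.3 and 32.6 FPKM under BCT, a shift of 0.46 ± 0.06 (SE) on the log2 scale with an adjusted p of 0.000164 (limma, Benjamini-Hochberg) that was not called.

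**Figure D2:**
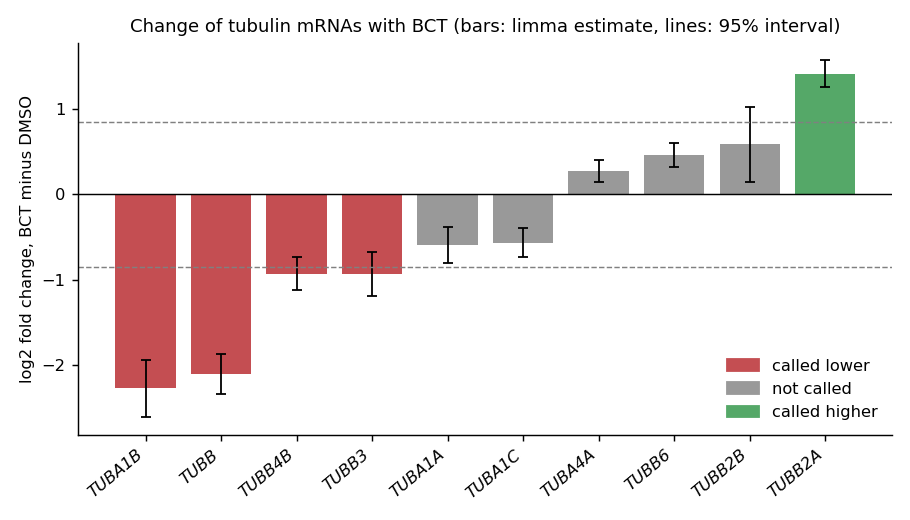
Bars give the limma log2 fold change (BCT minus DMSO) of each tubulin, lines its 95% interval, and dashed lines the threshold of 0.85 in either direction. The values run from -2.27 for TUBA1B to 1.41 for TUBB2A, and the intervals of TUBB4B, TUBB3 and TUBB2B cross the threshold.

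Direction went with starting level among the 10 genes. All 6 members at 50 FPKM or more with DMSO had negative log2 fold changes, with a median of -0.93, and all 4 members under that level had positive ones, with a median of 0.52. At equal FPKM sums 4 members in all were negative, since TUBA1A and TUBA1C turned. Among all tested genes, 74.5% of the 2003 at or above this level and 47.6% of the 10726 under it were negative, with medians of -0.44 and 0.06. The level of 50 FPKM was chosen after the values were seen. With DMSO, the order was TUBA1B, TUBB4B, TUBB, TUBA1C, TUBA1A, TUBB3, TUBB6, TUBA4A, TUBB2A and TUBB2B, and in none of the 9 pairs of neighbours did the ranges of the samples overlap. With BCT, the ranges overlapped in 4 of 9 neighbouring pairs, namely TUBA1B with TUBB4B, TUBA1C with TUBB, TUBB3 with TUBB6, and TUBB6 with TUBB2A. The mean of the highest member was 336 times that of the lowest with DMSO and 45.8 times with BCT.

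Summed over the members, alpha-tubulin mRNA was reduced by a larger factor than beta-tubulin mRNA. The 4 alpha-tubulins added up to 2443, 2474 and 2675 FPKM with DMSO and to 903, 700 and 697 FPKM with BCT, 3.30-fold lower on the means. The 6 beta-tubulins added up to 1467, 1434 and 1527 FPKM with DMSO and to 711, 611 and 582 FPKM with BCT, 2.33-fold lower. In each sample the alpha sum was the larger, but the ratio of alpha to beta went from 1.71 ± 0.04 to 1.20 ± 0.06 (SD, n = 3 each) without overlap. These ratios are taken within a sample, so multiplying a sample by a factor does not change them, although quantile normalization would, and an exact permutation test of 3 against 3 cannot go below p = 0.1, so none was run. Of the FPKM sum without MIR6087, the 10 genes took 0.583% ± 0.024 with DMSO and 0.266% ± 0.028 with BCT (SD, n = 3 each).

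TUBA1B and TUBB were lower by similar factors, while the make-up of each class changed. The ratio of TUBA1B to TUBB was 2.95, 3.09 and 3.22 in the DMSO samples and 2.96, 2.64 and 2.64 in the BCT samples, so the groups overlapped through BCT replicate 1 alone. The share of TUBA1B in the alpha sum dropped from 80.9% ± 1.34 to 55.7% ± 4.53, while TUBA1C went from 11.1% ± 0.34 to 24.9% ± 1.79 and TUBA1A from 7.19% ± 1.02 to 15.8% ± 2.42 (SD, n = 3 each). TUBA4A remained minor, at a mean of 0.859% with DMSO and 3.49% with BCT. In each of these 4 shares the groups did not overlap.

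In the beta class, TUBB and TUBB4B were near equal before treatment and unequal after it. TUBB took 45.0% ± 0.77 of the beta sum with DMSO and 24.4% ± 1.71 with BCT, and TUBB4B took 47.9% ± 0.59 and 58.7% ± 0.90 (SD, n = 3 each). TUBB2A went from 0.777% to 4.84%, TUBB6 from 1.60% to 5.18% and TUBB2B from 0.412% to 1.46% of the sum. The share of TUBB3 overlapped between groups, at 4.05% to 4.50% with DMSO and 3.97% to 6.22% with BCT. The ratio of TUBB2A to TUBB was 0.0166, 0.0182 and 0.0170 with DMSO and 0.178, 0.218 and 0.202 with BCT, an 11.5-fold higher mean.

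**Figure D3:**
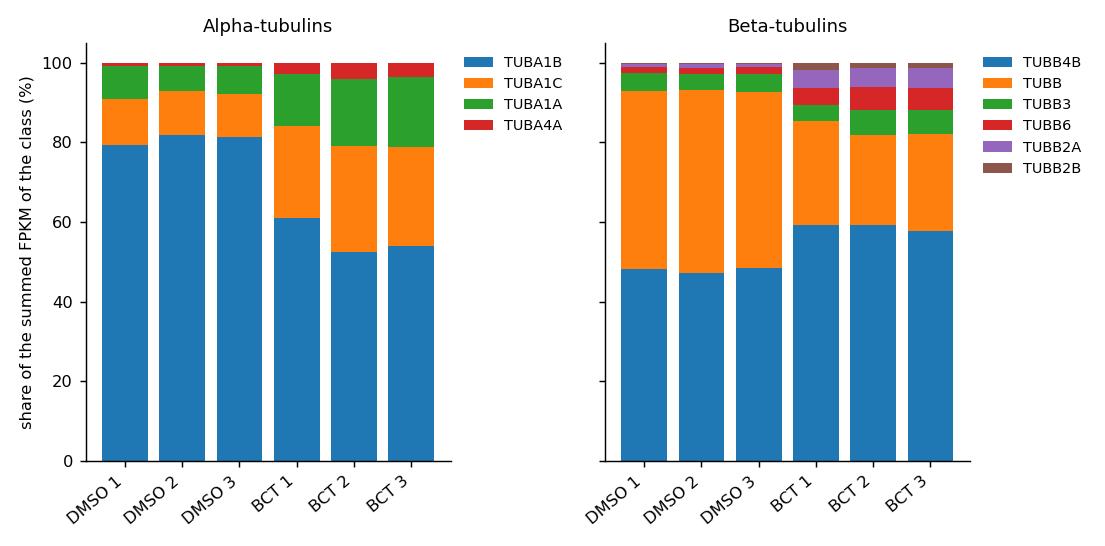
Stacked bars give each gene's share, in percent, of the summed FPKM of the alpha-tubulins (left) and beta-tubulins (right) in each of the 6 samples. TUBA1B shrinks from 80.9% to 55.7% and TUBB from 45.0% to 24.4% on the group means, and the pattern repeats in all 3 BCT samples.

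The promoters of the members at either end of this range are shown because the data differ most there. Each is the 250 bases before the RefSeq start on GRCh38.p14, 5′ to 3′ on the gene's own strand, with capitals marking matches, on either strand, to the motifs named next.
TUBB2A, chr6:3157545-3157794 (minus strand): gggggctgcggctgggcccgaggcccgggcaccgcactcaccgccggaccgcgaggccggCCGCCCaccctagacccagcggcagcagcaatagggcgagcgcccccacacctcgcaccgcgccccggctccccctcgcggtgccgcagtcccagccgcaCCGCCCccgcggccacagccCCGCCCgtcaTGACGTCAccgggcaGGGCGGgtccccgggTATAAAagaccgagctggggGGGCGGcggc
TUBA1B, chr12:49131396-49131645 (minus strand): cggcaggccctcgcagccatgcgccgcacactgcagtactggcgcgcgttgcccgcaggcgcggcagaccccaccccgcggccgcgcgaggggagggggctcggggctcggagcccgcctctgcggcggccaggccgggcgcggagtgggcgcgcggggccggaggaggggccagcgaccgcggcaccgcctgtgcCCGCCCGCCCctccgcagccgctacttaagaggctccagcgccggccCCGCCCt
Motifs were searched from 250 bases before to 50 bases after the start in 35116 RefSeq promoters, which included 15 entries for the 10 members. The full cAMP response element, TGACGTCA, was in 1.85% of all promoters and, among the members, only in TUBB2A, 60 bases before the start. The TATA box was searched only as TATAAA. These letters were in 11.5% of all promoters and, among the members, again only in TUBB2A, 30 bases before the start. Other spellings were not searched, and the related letters TATATAAG stand before a start of TUBB4B and of TUBA1C, so a TATA box is not shown to be particular to TUBB2A. The CCAAT box, searched as these letters, was in 34.6% of all promoters and in 7 members, with TUBA1B, TUBA4A and TUBB2A the exceptions. An E box, spelled CACGTG, was in 7.26% of all promoters and in TUBA1C and TUBB. The GC box, spelled GGGCGG, was in 45.0% of all promoters and in 8 members, all but TUBA1A and TUBB4B. None of these motifs contains another, and matches are a description of the letters only.

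TTC5, SCAPER and CNOT11, the factors of tubulin mRNA autoregulation named above, did not pass the test on the deposited scale. The mRNA of TTC5, the reader of the nascent tubulin chain, measured 22.0, 21.1 and 21.0 FPKM with DMSO and 20.9, 19.1 and 18.8 FPKM with BCT. Its log2 fold change was -0.12 ± 0.06 (SE), with an adjusted p of 0.0792 (limma, Benjamini-Hochberg). SCAPER, the adaptor, had overlapping groups at 4.41, 4.03 and 4.03 FPKM with DMSO and 4.19, 4.16 and 4.73 FPKM with BCT, and a log2 fold change of 0.06 with an adjusted p of 0.475 (limma, Benjamini-Hochberg). CNOT11, the CCR4-NOT subunit that SCAPER binds, overlapped too, with a log2 fold change of -0.08 and an adjusted p of 0.175 (limma, Benjamini-Hochberg). The signs of TTC5 and CNOT11 turned when samples were rescaled to equal FPKM sums, to 0.64 and 0.69, and also when MIR6087 was left out of the sums, to 0.26 and 0.30. SCAPER stood at 0.82 and 0.44 under these scalings. At equal sums the adjusted p was 0.000135 for TTC5, 8.42e-06 for SCAPER and 5.15e-05 for CNOT11 (limma, Benjamini-Hochberg). None passed the fold threshold, and the median of all tested genes was then 0.72. Without BCT replicate 1, TTC5 stood at -0.17 with an adjusted p of 0.00876 (limma, Benjamini-Hochberg). Of the 12 genes of this list, 1 was called higher and none lower, with a median log2 fold change of -0.0009. The called gene was CNOT10, another CCR4-NOT subunit, at 17.9 ± 0.58 and 43.9 ± 6.18 FPKM (SD, n = 3 each) and a log2 fold change of 1.28.

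The genes that fold tubulin chains were divided. TRiC, the ring-shaped chaperonin that folds tubulin, had none of its 8 subunits called, with log2 fold changes from -0.45 to 0.12, and prefoldin, which hands chains to TRiC, had 1 of 6 called, PFDN4, higher at 0.93. Of the 7 genes listed as tubulin cofactors, several of which assemble the heterodimer after TRiC, 3 were called lower and 1 higher, with a median of -0.44. TBCD, which holds beta-tubulin and joins it to alpha-tubulin, fell from 27.4 ± 0.92 to 8.91 ± 1.49 FPKM (mean ± SD, n = 3 in each group), which is -1.62 on the log2 scale. ARL2, the small GTPase that works with TBCD, fell from 120 ± 7.99 to 57.7 ± 6.71 FPKM (mean ± SD, n = 3 in each group), which is -1.07 on the log2 scale. TBCC, the activator of that GTPase, rose from 20.0 ± 0.99 to 36.8 ± 1.58 FPKM (mean ± SD, n = 3 in each group), which is 0.87 on the log2 scale. This call was lost at a pseudocount of 1 (0.85, just inside the threshold), without DMSO replicate 2 (0.83) and without BCT replicate 2 (0.84). TBCB, the alpha-tubulin cofactor that was the remaining call, stood at -1.002 on the log2 scale and is named because of its value.

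None of the tested gamma, delta and epsilon tubulins was called lower. TUBG1, the gamma-tubulin that nucleates microtubules, measured 72.8 ± 1.78 FPKM with DMSO and 63.8 ± 4.08 with BCT (SD, n = 3 each). Its difference of -0.19 on the log2 scale was not called, and its sign turned to 0.58 at equal FPKM sums and to 0.20 when MIR6087 was left out of them. TUBG2, the second gamma-tubulin gene, rose from 7.44 ± 0.79 to 17.1 ± 1.27 FPKM (SD, n = 3 each), and TUBE1, the epsilon-tubulin of centrioles, from 13.5 ± 0.02 to 26.6 ± 0.84 FPKM (SD, n = 3 each). Their log2 fold changes were 1.19 and 0.97, so that 2 of 4 gamma, delta and epsilon genes were called, both higher. Of 9 gamma-tubulin ring complex genes 1 was called, MZT1, lower at -0.995. The 8 other alpha- and beta-tubulin genes that were looked up added up to a mean of only 4.30 FPKM with DMSO and 3.84 FPKM with BCT, and TUBA8 alone among them passed the filter and was not called.

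Among genes acting on finished tubulin, the stathmins moved most. STMN1, which binds free dimers and promotes microtubule shrinkage, gave 613, 534 and 581 FPKM under DMSO, against 121, 82.1 and 80.0 FPKM under BCT, with BCT replicate 1 the highest of its group. Its log2 fold change was -2.63 and that of its relative STMN3 was -1.36. STMN4, a neuronal stathmin, went the other way, from 0.78, 0.593 and 0.578 FPKM with DMSO to 67.5, 81.2 and 73.7 FPKM with BCT. All 3 stathmins tested were therefore called, 2 lower and 1 higher. Of 14 tested enzymes that modify tubulin, 3 were called lower and 1 higher: TTLL1, a glutamylase subunit, at -1.39, TTLL12 at -1.27 and TTLL3, a glycylase, at 1.09 on the log2 scale. The remaining call in that list, named because of its value, was TTL, the tubulin tyrosine ligase, at -1.01. Of 17 tested microtubule-associated and severing proteins, 4 were called higher, with CLASP2, a plus-end stabiliser, at 1.57 and MAP1B, a microtubule stabiliser, at 0.92. The others, MAP7 at 0.86 and MAP1S at 0.8525, are named because of their values and lay close to the threshold of 0.85. Whether the calls of MAP7, MAP1S, TTL and TBCB held under the other settings was not examined. The calls of TTLL3 and MAP1B were lost at a pseudocount of 1, that of MAP1B also without BCT replicate 1, and those of MZT1, ARL2, TTLL1, TTLL12 and STMN3 at equal FPKM sums.

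**Figure D4:**
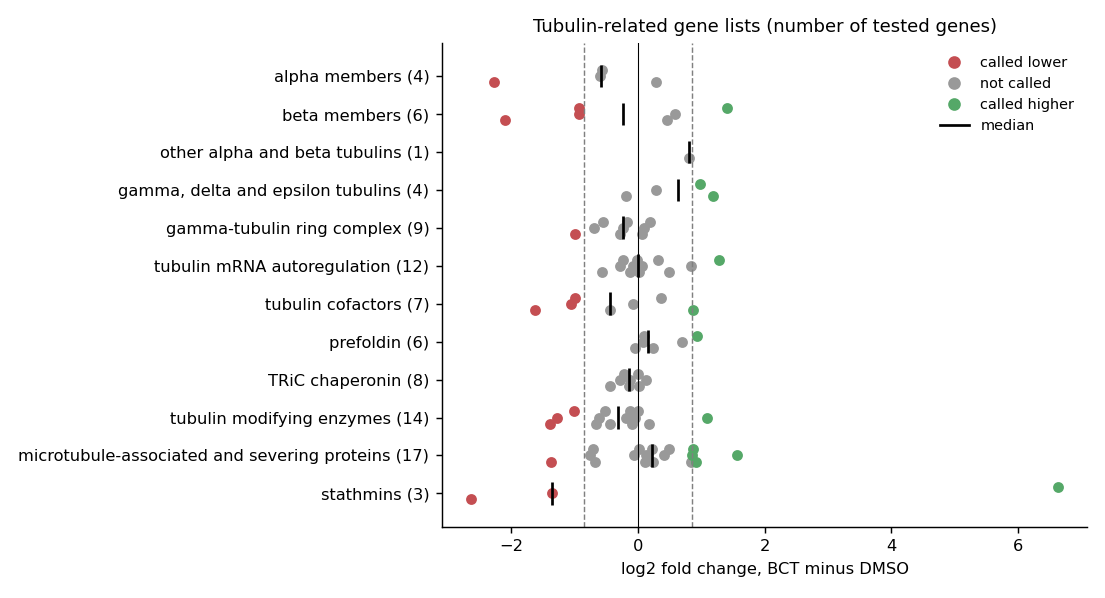
Each point is a tested gene's log2 fold change (BCT minus DMSO), arranged by list, with the number of tested genes in brackets, black ticks for list medians and dashed lines at the threshold of 0.85. The autoregulation list centres on -0.0009, while the stathmins spread from -2.63 to 6.64.

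The genes most alike to TUBA1B over the 6 samples were picked by Pearson's r of log2(FPKM + 0.1), among tested genes outside the lists. They were BCAM, a cell adhesion molecule (r = 0.99994), TMEM54, a membrane protein (r = 0.99975), and CTSD, a lysosomal protease (r = 0.99975). All 3 were called lower, with log2 fold changes of -2.16, -1.79 and -1.69. These values are a description, since the 6 points fall into the treatment groups and share library and scale.

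Among the 10 members, the sign turned for TUBA1A and TUBA1C at equal FPKM sums and for none under the other scalings tried. When samples were rescaled to equal FPKM sums, the median of all tested genes moved from -0.04 to 0.72, and relative to that median the members ran from -2.22 for TUBA1B to 1.45 for TUBB2A. With MIR6087 left out of the sums the median was 0.34 and the relative values ran from -2.23 to 1.45. These relative values are nearly fixed by construction, since such a scaling multiplies a whole sample by a single factor. TUBA1B, TUBB and TUBB2A were called in the same direction in all 20 settings, TUBB4B in 17 and TUBB3 in 16. The size of the change still depended on the scaling. At equal FPKM sums the log2 fold change was -1.50 for TUBA1B, -1.34 for TUBB and 2.17 for TUBB2A. Under quantile normalization these values were -1.72, -1.67 and 1.43.

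**Figure D5:**
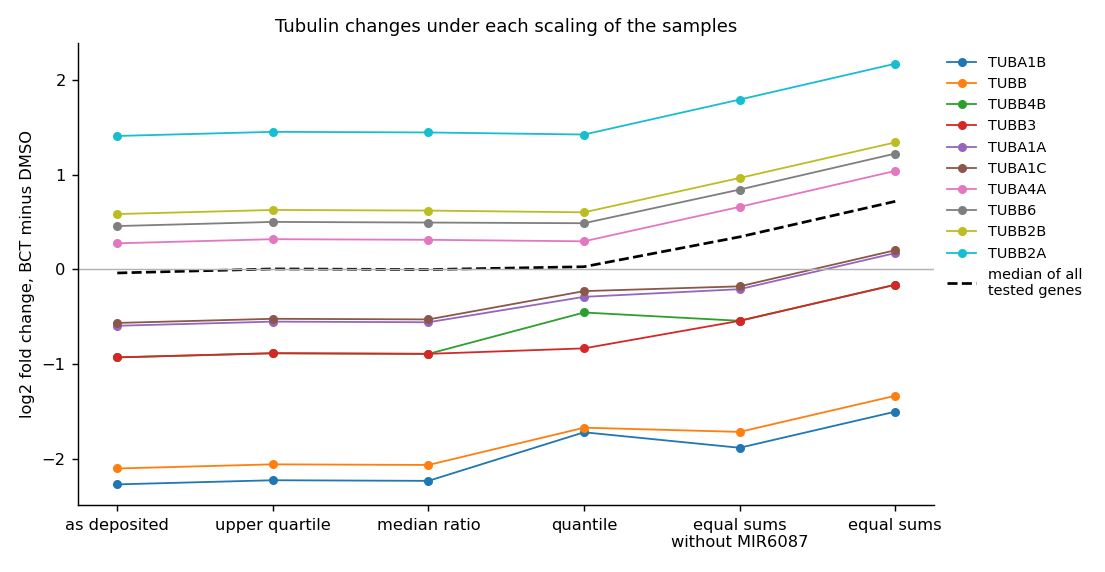
Log2 fold change (BCT minus DMSO) of each tubulin under the deposited scale and 5 other scalings of the samples, with the median of all tested genes as a dashed line. The lines of TUBA1B, TUBB and TUBB2A stay away from 0, and those of TUBA1A and TUBA1C cross it at equal sums, to 0.17 and 0.20.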

How the data were processed

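RNA was sequenced from 22RV1 cells, 3 samples with DMSO and 3 with BCT at 10 nM, after 24 h. After trimming (Trimmomatic 0.38) and alignment to hg19 (HISAT2), the authors deposited one table of FPKM per sample, estimated with StringTie per the study's methods. The labels also name HTSeq and CASAVA without a role, and the annotation and the treatment of reads with several matches are not given in the sources used here. FPKM hold no read counts, so the depth of each sample and counting intervals are unknown here and no count model was run. The 6 tables listed the same 26255 genes.

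Values were compared as log2(FPKM + 0.1) for the 12729 genes that averaged 1 FPKM or more, with limma 3.58.1 in R 4.3.3 (empirical Bayes with a mean-variance trend, all 6 samples, no covariate) and Benjamini-Hochberg adjustment over all tested genes. A gene was called at an absolute log2 fold change over 0.85 and an adjusted p under 0.05. The study states this fold threshold with an FDR of 0.05 in its results and of 0.01 in its methods, and the latter was run as an alternative. The script was tested on simulated data. The members and gene lists were chosen with earlier results of these data known, so list counts are descriptions beside the share of all tested genes. Genes named outside the 10 tubulins were TTC5, SCAPER, CNOT11 and TUBG1, the called genes with the strongest changes (up to 2 in each direction) of each other list, and the 3 genes most alike to TUBA1B. Exceptions are marked in the text, and some genes that the rule or the marker list holds are not reported here. Of the markers, 4 neuron-like genes were also looked up: SYP, ENO2 and MAP2 were tested, 1 was called lower and none higher. CNOT9 was matched by its older symbol RQCD1. Coding sequences came from the GRCh37 annotation and promoters from RefSeq (GRCh38.p14), read with Python 3.11.15 and Biopython 1.88. Alternatives were other pseudocounts, filters, scalings, thresholds and empirical Bayes settings, a replicate block, and leaving out each sample.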

Additional observations from a re-analysis of the deposited data

How the results depend on the processing

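Of 190 values from alternatives for the 10 tubulins, 177 kept both the direction and the call, 7 lost the call, 4 gained it and 2 turned sign. For the 21 other genes chosen by the naming rule, of 396 values 376 kept both, 14 lost the call and 6 turned sign. The scalings to equal FPKM sums moved most. There, 6277 genes were called (668 lower and 5609 higher, 10.64% lower against 56.2% as deposited), 2 members were lower and 4 higher, their median was 0.19, and TUBA1A (0.17), TUBA1C (0.20), TTC5 (0.64), CNOT11 (0.69) and TUBG1 (0.58) turned sign. TUBB3 and TUBB4B were then both at -0.16 and not called, and TUBA4A (1.04), TUBB2B (1.34) and TUBB6 (1.22) were called. With MIR6087 left out of the sums, 4577 genes were called (1208 lower and 3369 higher, 26.39% lower), 2 members were lower and 2 higher, with TUBB2B at 0.97, their median was -0.19, and TTC5 (0.26), CNOT11 (0.30) and TUBG1 (0.20) turned sign. Calls were also lost at equal sums by MZT1 (-0.23), ARL2 (-0.30), TTLL1 (-0.66), TTLL12 (-0.51) and STMN3 (-0.59), of which MZT1 (-0.61) and ARL2 (-0.68) lost them without MIR6087 too. TTLL3 (0.77) and MAP1B (0.77) lost theirs at a pseudocount of 1, and MAP1B (0.84) without BCT replicate 1. With quantile normalization 2 members were called lower and their median was -0.26. The causes of these shifts were not tested. Upper quartile and median ratio scaling changed no tubulin call. Over all genes, 5428 were called with no filter (2771 lower and 2657 higher) and 2727 with a mean of at least 5 FPKM (1577 and 1150). Leaving out each sample gave 3834 to 4420 called genes, 3 to 4 members lower, 1 higher and a member median from -0.65 to -0.54. A replicate block, with the sample number as a term, gave 4033 called genes, and the members stood at 4 lower and 1 higher. Same-numbered samples deviated together only weakly (r = 0.116, 0.033 and 0.034, against a mean of -0.031 for other numbers). With 3 samples a group, this cannot settle whether the numbers pair the samples. The FDR of 0.01 changed no tubulin call. The depth of each sample is unknown here, and 3 samples a group limit each value.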
